A study of Homo sapiens with 6 samples.

Results

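Of 10 genes of the Wnt pathway in MCF10A, a cell line of human mammary epithelium that does not form tumours, 1 fell with the number of cells plated and 1 rose, against 21.3% of all genes called in either direction. DKK1, a secreted antagonist, was 4.55-fold lower on the array of the densest dish than on that of the sparsest. TCF7L2, a nuclear effector, was 1.28-fold higher, a call that was lost in 10 of 13 alternative settings. WNT5A, a ligand, was 1.95-fold lower at the highest than at the lowest density, but its trend did not pass the test. The 10 genes were chosen by name as ligands (WNT4, WNT5A, WNT7B, WNT10A), antagonists (DKK1, DKK3, SFRP1) and nuclear factors or targets (AXIN2, LEF1, TCF7L2), and were found by symbol. All 10 of the 19775 genes measured were found, with 34 probe sets that carry a single gene symbol, and none was removed by a filter on low values.

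The 6 groups differ in plating density alone: 50K, 100K, 200K, 400K, 600K or 800K cells (K stands for kilo) went into a 35 mm dish, and RNA was taken 24 h later. Every dish had DMEM/F12 medium with insulin (10 μg/ml), EGF (20 ng/ml), cholera toxin (100 ng/ml), hydrocortisone (0.5 μg/ml), gentamicin (100 μg/ml) and horse serum at 5%. Each density was measured on 1 Affymetrix array, which leaves every density unreplicated; how many dishes went into an array is not stated in the labels. The deposited values divide each probe set by its signal at 50K. A ratio carries no level, so a gene that does not move and a gene that is not expressed cannot be told apart, levels of different genes cannot be ranked, and markers of the cell type cannot be checked for presence. Median ratios over all probe sets lay between 1.013 and 1.036 on the arrays above 50K. Of 7 measured epithelial and basal markers 4 rose and 1 fell (71.4% called). Of 18 measured markers of fibroblasts, endothelium, leukocytes and adipocytes 4 rose (DCN, PECAM1, KDR and CD14) and none fell. That is 22.2%, about the 21.3% of all genes. Tested alone, 1 of 7 probe sets of DCN, 1 of 5 of PECAM1, that of CD14 and not that of KDR passed. The part of these markers in the results was not tested.

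Wnt ligands are secreted lipid-modified proteins that bind Frizzled receptors and the co-receptors LRP5 and LRP6. In the canonical branch this spares beta-catenin from the destruction complex of AXIN, APC and GSK3, and beta-catenin then joins LEF1 or a TCF factor on DNA and drives targets such as AXIN2, itself a feedback inhibitor. Beta-catenin is also part of the adherens junctions that epithelial cells build on contact. DKK proteins block the co-receptors and SFRP proteins bind the ligands, while WNT5A is best known for beta-catenin-independent signalling in cell movement and polarity.

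The stretches before the transcription starts of the members that passed the test and of WNT5A are shown because TCF and LEF factors, which are themselves members, bind a short DNA core. For TCF7L2, 2 of its 3 windows are shown. RefSeq (GRCh38.p14) start sites gave the 9 windows used here, for 6 of the 10 genes. No window of AXIN2, DKK3, SFRP1 or WNT7B was searched. This does not show that RefSeq lacks a start site for these genes, and their motifs are unknown here. Each line gives the 250 bases before a start, 5′ to 3′ on the strand of the gene. Capitals mark the TCF/LEF core, CTTTG followed by 2 bases that are each A or T, and the TEAD motif GGAATG, searched on both strands; no match overlaps another in these windows.
DKK1, chr10:52314031-52314280, plus strand: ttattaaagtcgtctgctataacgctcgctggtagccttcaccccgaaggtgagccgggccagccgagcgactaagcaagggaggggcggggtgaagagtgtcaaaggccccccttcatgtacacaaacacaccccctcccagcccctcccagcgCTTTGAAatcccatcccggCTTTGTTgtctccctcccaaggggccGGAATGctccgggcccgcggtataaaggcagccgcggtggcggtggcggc
WNT5A, chr3:55487307-55487556, minus strand: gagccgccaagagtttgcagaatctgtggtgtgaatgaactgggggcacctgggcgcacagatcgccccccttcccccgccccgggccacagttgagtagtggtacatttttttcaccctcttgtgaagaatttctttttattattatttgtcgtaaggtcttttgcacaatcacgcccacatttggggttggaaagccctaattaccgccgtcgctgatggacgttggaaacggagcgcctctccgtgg
WNT5A, chr3:55481399-55481648, minus strand: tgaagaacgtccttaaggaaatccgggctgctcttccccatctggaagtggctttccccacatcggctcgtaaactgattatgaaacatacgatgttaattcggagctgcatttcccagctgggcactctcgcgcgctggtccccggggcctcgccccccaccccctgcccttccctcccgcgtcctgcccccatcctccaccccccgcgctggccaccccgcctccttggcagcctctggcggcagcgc
TCF7L2, chr10:112949997-112950246, plus strand: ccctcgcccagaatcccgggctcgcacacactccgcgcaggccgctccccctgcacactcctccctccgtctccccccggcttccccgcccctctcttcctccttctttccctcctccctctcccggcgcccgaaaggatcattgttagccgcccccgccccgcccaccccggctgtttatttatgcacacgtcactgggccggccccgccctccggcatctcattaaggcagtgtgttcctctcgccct
TCF7L2, chr10:113126383-113126632, plus strand: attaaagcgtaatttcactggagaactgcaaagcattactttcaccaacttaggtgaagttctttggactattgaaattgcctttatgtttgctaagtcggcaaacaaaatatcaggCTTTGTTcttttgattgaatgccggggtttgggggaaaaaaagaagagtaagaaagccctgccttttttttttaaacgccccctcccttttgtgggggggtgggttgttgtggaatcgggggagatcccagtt
The DKK1 window held 2 TCF/LEF cores, starting 95 and 76 bases before the start, and 1 TEAD motif starting 50 bases before it. Among all 35116 RefSeq windows of this length 12.0% held a TCF/LEF core and 11.9% a TEAD motif. Neither motif was found in the windows of WNT5A, WNT4, WNT10A and LEF1. For TCF7L2, 1 of 3 windows, that of an internal start, held a TCF/LEF core. These matches describe letters only.

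**Figure D1:**
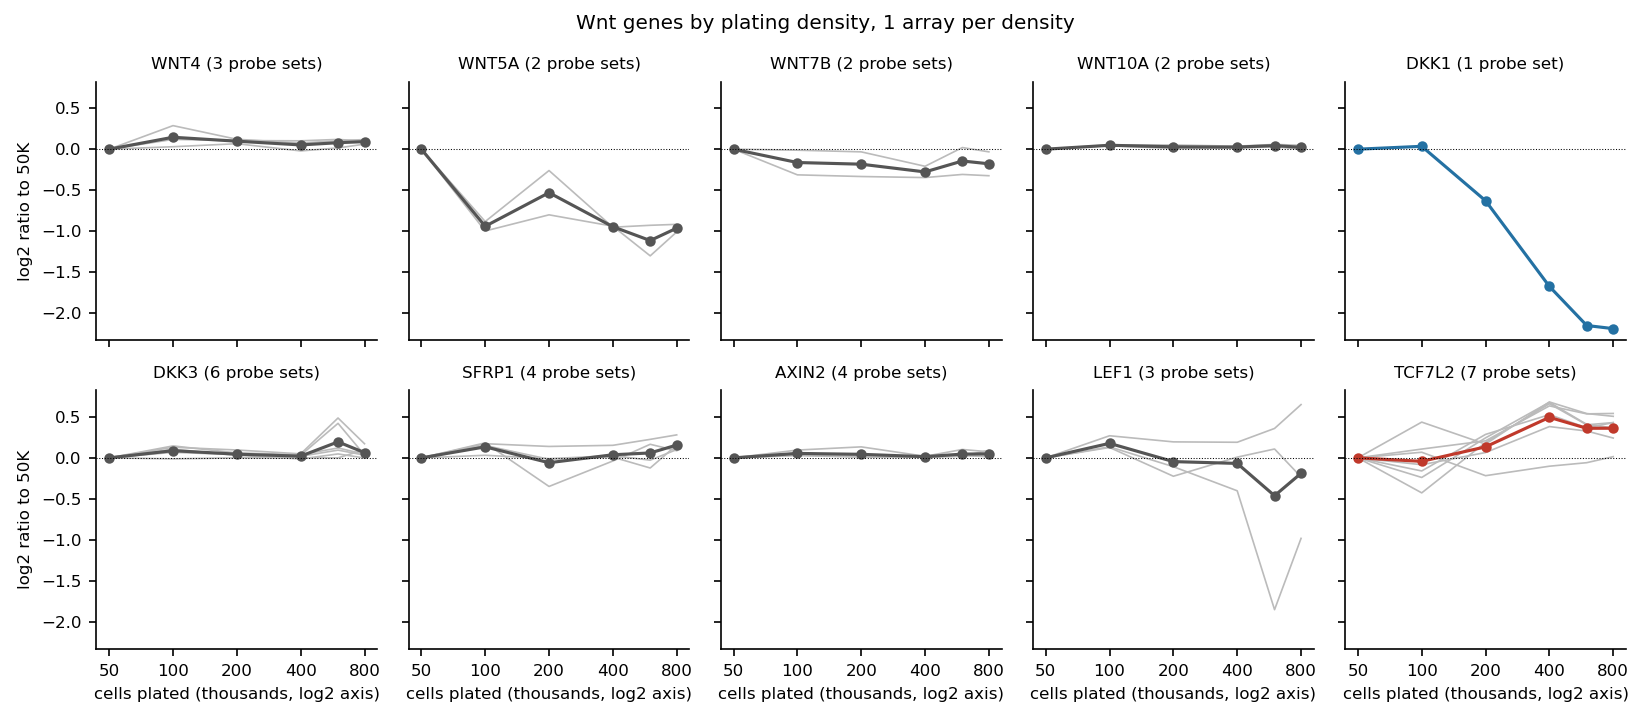
Log2 ratio to the 50K array (vertical axis) against cells plated (K, log2 axis) for the 10 genes. Grey lines are single probe sets, and coloured lines with points are gene means (blue, fell; red, rose; dark grey, did not pass). DKK1 drops to −2.19 at 800K, WNT5A lies between −1.11 and −0.94 on the denser arrays apart from 200K (−0.53), and the probe sets of LEF1 diverge at 600K and 800K.

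The comparison the series was built for, expression against plating density, was fitted with limma as a line through the log2 ratios against log2 cell number across all 19775 genes and Benjamini-Hochberg adjustment over all of them. A slope is therefore in log2 units per doubling of cells, its error is a standard error (SE) over 6 arrays, and a gene passed at an adjusted p under 0.05. Of the 10 members, 1 rose and 1 fell. The share called among all genes was 21.3% in either direction, with 8.93% rising and 12.4% falling, so the members were called at about the rate of any gene. The median slope of the members was 0.0052 and that of all genes 0.0045.

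DKK1 was the steepest of the 10. Its ratio to 50K was 1.02, 0.647, 0.314, 0.226 and 0.22 at the 5 higher densities, in order from 100K to 800K. The level thus held between 50K and 100K, dropped most between 200K and 400K (by 1.04 log2 units) and changed by −0.04 between 600K and 800K. The slope was −0.64 ± 0.07 (adjusted p = 0.0038, limma). This is a fitted change over the whole range of −2.56 log2 units, with a 95% interval of −3.27 to −1.85. DKK1 is measured by 1 probe set, so no second probe set bears on it. Including DKK1 itself, 27 of the 19775 genes had a slope as negative. With each array left out in turn the slope stayed between −0.80 and −0.59, with adjusted p up to 0.0191. In bulk RNA, fewer cells expressing a gene and less RNA per cell cannot be told apart, here and below.

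The other antagonists stayed near their 50K values. DKK3, a divergent member of the DKK family whose effect on Wnt signalling is less clear, had ratios of 1.06, 1.03, 1.02, 1.15 and 1.05 in the same order. Its highest value, at 600K, came mainly from the probe sets 221126_at and 221127_s_at, which read 1.34 and 1.40 there. The fitted change of DKK3 was 0.09 log2 units (95% interval −0.10 to 0.28; adjusted p = 0.547). SFRP1, a decoy that binds Wnt ligands, had ratios of 1.10, 0.96, 1.03, 1.04 and 1.11 from 100K to 800K. Its fitted change was 0.07 (95% interval −0.15 to 0.30; adjusted p = 0.694), and its 4 probe sets each failed the test.

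Among the ligands WNT5A had the widest range. Its ratio was 0.522, 0.693, 0.52, 0.462 and 0.513 from 100K to 800K, so every array above 50K was lower than 50K. It was 0.41 log2 units higher at 200K than at 100K, and the step from 200K to 400K was −0.41. Both probe sets, 205990_s_at and 213425_at, read close to each other at 100K (0.501 and 0.543) and apart at 200K (0.574 and 0.835). At 100K, 36 of 19775 genes had a log2 ratio as low as the −0.94 of WNT5A. The slope was −0.21 ± 0.07 (adjusted p = 0.0903) and did not pass. It rests on the sparsest array: without 50K it was −0.08 (adjusted p = 0.615), and without 100K it was −0.27 and passed (adjusted p = 0.0164). With 1 array at 50K, a difference between 50K and all other densities cannot be told apart from a feature of that array.

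WNT7B, a ligand of epithelia, was also lower on every array above 50K, by less. Its ratios were 0.893, 0.881, 0.825, 0.905 and 0.884 from 100K to 800K. The probe set 217681_at lay between 0.787 and 0.808 on those arrays and 238105_x_at between 0.866 and 1.01. The fitted change was −0.15 (95% interval −0.36 to 0.06; adjusted p = 0.306). WNT4, a ligand of mammary side branching, stayed between 1.04 and 1.11 and WNT10A between 1.02 and 1.03. Their fitted changes were 0.03 (95% interval −0.13 to 0.19; adjusted p = 0.842) and 0.02 (−0.10 to 0.13; adjusted p = 0.885). These ratios lie near the array medians, and the sign of the WNT10A slope turned when arrays were centred on those medians.

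TCF7L2, a TCF factor that partners beta-catenin, was the member that rose. Its ratio was 0.971, 1.10, 1.41, 1.28 and 1.28 from 100K to 800K. The 3 densest arrays lay above the 3 sparsest, and the highest was 400K, not 800K. The slope was 0.12 ± 0.03 (adjusted p = 0.0353), a fitted change of 0.49 (95% interval 0.20 to 0.79). Of its 7 probe sets 6 had slopes above 0, with ratios between 1.30 and 1.60 at 400K and between 1.18 and 1.46 at 800K. Tested alone over all 54613 probe sets, of which 13.9% passed, 1 of the 7 did, 216511_s_at (slope 0.16 ± 0.03, adjusted p = 0.0219). The exception, 212759_s_at, read between 0.86 and 1.05. The call of TCF7L2 was close to the threshold: it was lost in 10 of 13 alternatives, among them leaving out the array of 50K, 100K, 200K, 600K or 800K (adjusted p 0.0893, 0.0915, 0.0559, 0.0908 and 0.0715).

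LEF1, the other DNA-binding partner among the members and itself a target of the pathway, could not be summarised as 1 trend. As a mean of 3 probe sets its ratio was 1.13, 0.969, 0.954, 0.727 and 0.878 from 100K to 800K, with a slope of −0.10 ± 0.04 (adjusted p = 0.153). Its probe sets went apart. At 600K and 800K 221558_s_at read 0.278 and 0.507, 221557_s_at read 1.28 and 1.57, and 210948_s_at read 1.08 and 0.851. None of these 3 passed on its own (adjusted p 0.128, 0.121 and 0.788).

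AXIN2, the feedback inhibitor often used as a readout of beta-catenin activity, showed no movement beyond a few percent. Its ratios were 1.04, 1.03, 1.01, 1.03 and 1.03 from 100K to 800K. The fitted change of AXIN2 was 0.03 log2 units, with a 95% interval of −0.09 to 0.14 (adjusted p = 0.819), and its 4 probe sets had slopes between −0.00021 and 0.013. Since no level is known, such an interval limits the change of the signal, not of a transcript below the background of the array.

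**Figure D2:**
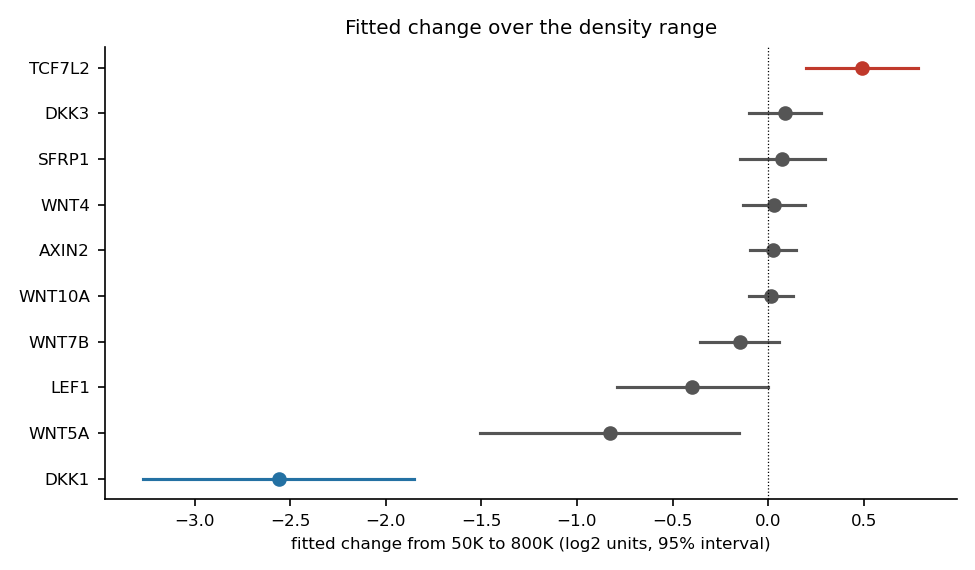
Fitted change between 50K and 800K in log2 units (horizontal axis) for the 10 genes, with 95% intervals from limma; blue fell, red rose, dark grey did not pass. The interval of DKK1 (−3.27 to −1.85) lies apart from those of the other genes, and that of WNT5A (−1.51 to −0.15) excludes 0 before adjustment over all genes.

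No member had a curvature that passed. The quadratic term in log2 density had an unadjusted p under 0.05 for 0 of 10 members and for 2496 of all genes, and 0 of 19775 genes passed after adjustment (limma). The share called was 0% for all genes. The lowest unadjusted values among the members were those of WNT7B (adjusted p = 0.448) and DKK1 (adjusted p = 0.47).

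Related members were compared within arrays, as the slope of the difference of their log2 ratios, in 6 pairs with an exact permutation of the 6 densities over all 720 orders (two-sided; the smallest p this allows is 0.0014). DKK1 minus DKK3 had a slope of −0.66 (exact p = 0.0056, adjusted over the 6 pairs 0.0333). Against untransformed cell number the adjusted exact p was 0.0583, so the call was lost. With any array left out it was 0.05 to 0.15. As 5 arrays allow no exact p below 0.0083, a lone pair reaches at best 0.05 after adjustment over 6 pairs. Leaving out an array could therefore hardly keep the call and does not test it. The other 5 pairs did not pass. LEF1 minus TCF7L2 had a slope of −0.22 (adjusted exact p = 0.0917), WNT4 minus WNT5A 0.22 (0.117), WNT5A minus WNT7B −0.17 (0.117), LEF1 minus AXIN2 −0.11 (0.117) and WNT7B minus WNT10A −0.04 (0.154). A miss at 6 arrays does not show that the genes of a pair moved alike.

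The members were set against the rest of the pathway through lists of 116 genes in 9 roles, of which 109 were measured and WNT3, WNT3A, PORCN, TIKI1, TIKI2, FZD8 and TCF7 were not analysed here. Apart from the 10 members, 12 of 99 rose and 11 fell, 23.2% against 21.3% of all genes. The median slope of the 99 was 0.0045, as for all genes. The number rising was 5 without 100K, 5 without 600K and 4 without 800K, and the number falling was 6 without 50K and 7 without 800K.

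Of 17 measured ligands 2 fell and none rose (11.8% called, against 21.3% of all genes). Of 15 secreted antagonists 1 fell, DKK1, and none rose (6.67% called). WNT10B, a canonical ligand, had ratios of 0.902, 0.827, 0.646, 0.634 and 0.734 from 100K to 800K (slope −0.15 ± 0.03, adjusted p = 0.0228; lost without 50K, 100K or 600K, up to 0.137, and against untransformed cell number, 0.102, and its rank, 0.0521). WNT7A passed at the margin (slope −0.19 ± 0.05, adjusted p = 0.0499) and was lost in 11 of 12 alternatives. WLS, which carries ligands to the cell surface, rose to 1.21 at 800K (slope 0.09 ± 0.02, adjusted p = 0.0292), though 1 of its 3 probe sets had a slope below 0 and 7 of 12 alternatives lost the call, up to an adjusted p of 0.154.

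Of 15 measured receptors and co-receptors 2 rose and 2 fell (26.7% called, against 21.3% of all genes). FZD2, a Frizzled receptor, had ratios of 0.717, 0.736, 0.677, 0.567 and 0.49 from 100K to 800K (slope −0.21 ± 0.03, adjusted p = 0.0105; 0.0835 without 50K). The co-receptor LRP6, which DKK1 binds, fell by less, to 0.757 at 800K, with slopes below 0 for 3 of 3 probe sets (−0.09 ± 0.01, adjusted p = 0.0073). FZD6 rose to 1.26 (slope 0.12 ± 0.03, adjusted p = 0.0292; lost with 100K, 400K, 600K or 800K left out, reaching 0.0917, and 0.0572 with arrays centred). The other receptor that rose, FZD3, had a slope of 0.09 ± 0.02 (adjusted p = 0.0324; lost with any array but 200K left out, up to 0.207, and against untransformed cell number, 0.135). In the R-spondin axis 1 of 9 passed (11.1%), RNF43, a ubiquitin ligase that removes Frizzled receptors and is itself a Wnt target. Its ratio went from 0.92 at 100K to 0.836, 0.691, 0.666 and 0.646, lower on each denser array (slope −0.17 ± 0.01, adjusted p = 0.002).

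In the list of the destruction complex and Dishevelled proteins 2 of 13 rose and none fell, counted as gene means. GSK3B did not pass as a mean of 5 probe sets (slope 0.03 ± 0.02, adjusted p = 0.226). Tested alone, 3 of the 5 passed, in opposite directions. Their slopes were −0.22 (adjusted p = 0.0051), 0.12 (0.0412) and 0.12 (0.046). The mean of GSK3B therefore does not show that its signal held still. Casein kinase 1 alpha, CSNK1A1, which primes beta-catenin for removal, reached 1.34 at 800K with 12 of 13 probe sets rising in slope (0.13 ± 0.03, adjusted p = 0.0209; 0.0655 without 600K and 0.0818 without 800K). CSNK1D had a slope of 0.07 ± 0.01 (adjusted p = 0.0199), which was 0.03 (adjusted p = 0.669) with the median of its 3 probe sets, and its call was also lost without 100K, 600K or 800K (up to 0.0865). Of 15 nuclear factors and co-factors 2 rose, TCF7L2 among them, and 3 fell (33.3% called). TLE5, a short Groucho-family protein, rose to 1.43 (adjusted p = 0.0195; 0.067 without 50K and 0.0588 without 100K). The beta-catenin co-factors BCL9L and PYGO1 fell to 0.76 and 0.786 (adjusted p = 0.0111 and 0.0093; 0.0523 for BCL9L without 800K), and the co-repressor TLE1 had a slope of −0.08 ± 0.02 (adjusted p = 0.0374; lost with any array but 200K left out, up to 0.151, and with the median of probe sets, 0.11).

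Of 16 measured feedback genes and targets 3 fell and 1 rose. The targets that fell were FOSL1, an AP-1 subunit, the G1 cyclin CCND1 and RNF43; FOSL1 and CCND1 are also known to respond to growth factor signalling. FOSL1 had ratios of 0.994, 0.566, 0.409, 0.445 and 0.394 from 100K to 800K (slope −0.38 ± 0.05, adjusted p = 0.0062). CCND1 was lower on each denser array, from 0.861 at 100K to 0.478 at 800K (slope −0.27 ± 0.02, adjusted p = 0.0016). The gene that rose was APCDD1, a membrane-bound inhibitor of Wnt signalling (slope 0.13 ± 0.03, adjusted p = 0.0282; 0.2145 without 50K, 0.0552 without 400K and 0.112 without 800K). In none of the 12 alternatives were the calls of FOSL1, CCND1, RNF43 or LRP6 lost. The list of the planar polarity and calcium branches had 5 of 12 rising and 1 falling, against 8.93% and 12.4% of all genes; 1 of the 5, CAMK2D, belongs to the calcium branch. The atypical cadherins CELSR2 and CELSR3, which align polarity between neighbouring cells, reached 2.32 and 2.66 at 800K (slopes 0.31 ± 0.04 and 0.35 ± 0.09, adjusted p = 0.0043 and 0.0356). CELSR3 was lost with any of 50K, 100K, 600K and 800K left out (reaching 0.134) and with arrays centred (0.0532). PRICKLE2, a cytoplasmic polarity protein, reached 1.72 (adjusted p = 0.0183; 0.0504 without 100K and 0.0549 without 800K). The calcium-dependent kinase gene CAMK2D (slope 0.16 ± 0.02, adjusted p = 0.0068) and DAAM1, an actin-assembling formin (0.10 ± 0.02, adjusted p = 0.0181; 0.0676, 0.0611 and 0.06 without 50K, 600K and 800K), also rose. VANGL1, a membrane protein of the polarity complex, fell (−0.11 ± 0.02, adjusted p = 0.0119; 0.063 without 50K and 0.0561 without 800K).

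**Figure D3:**
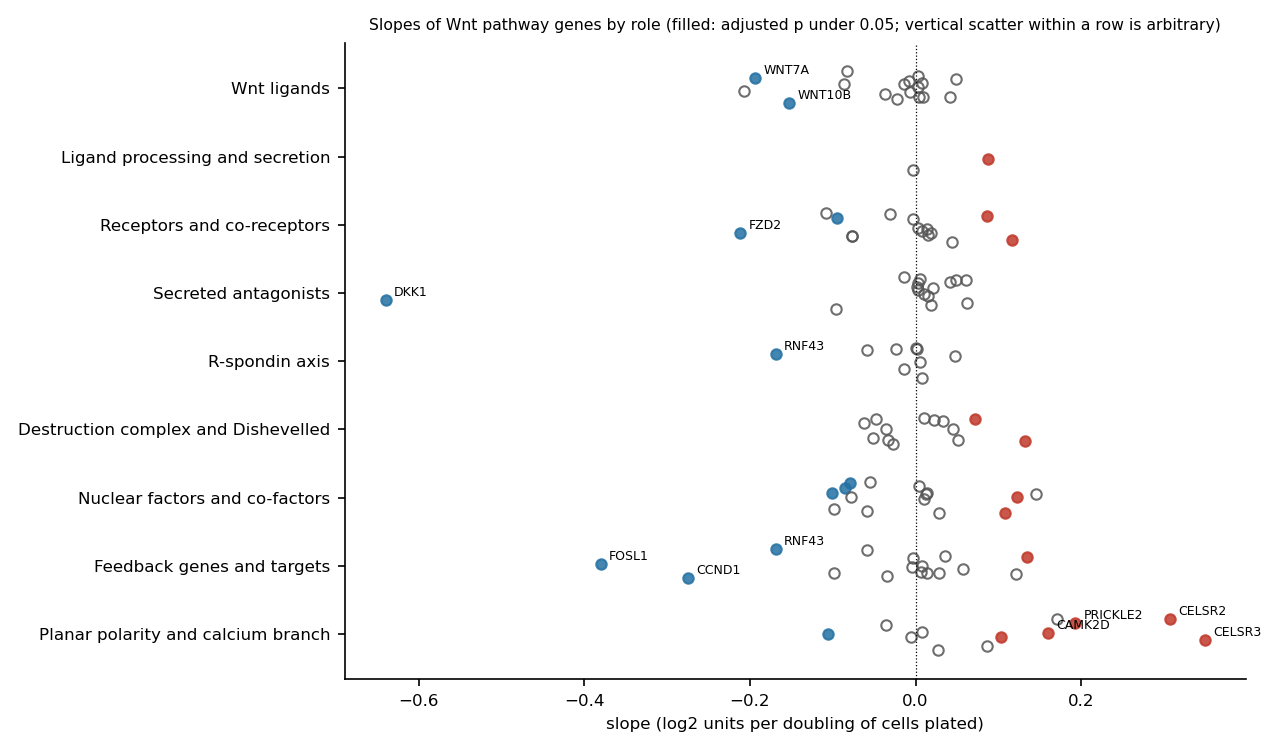
Slope in log2 units per doubling of cells (horizontal axis) for the 109 measured genes of the 9 lists, 1 row per role; filled points passed an adjusted p of 0.05, blue falling and red rising, and genes in more than 1 list appear in each. DKK1 at −0.64 lies lowest of all, and CELSR3 at 0.35 highest.

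**Figure D4:**
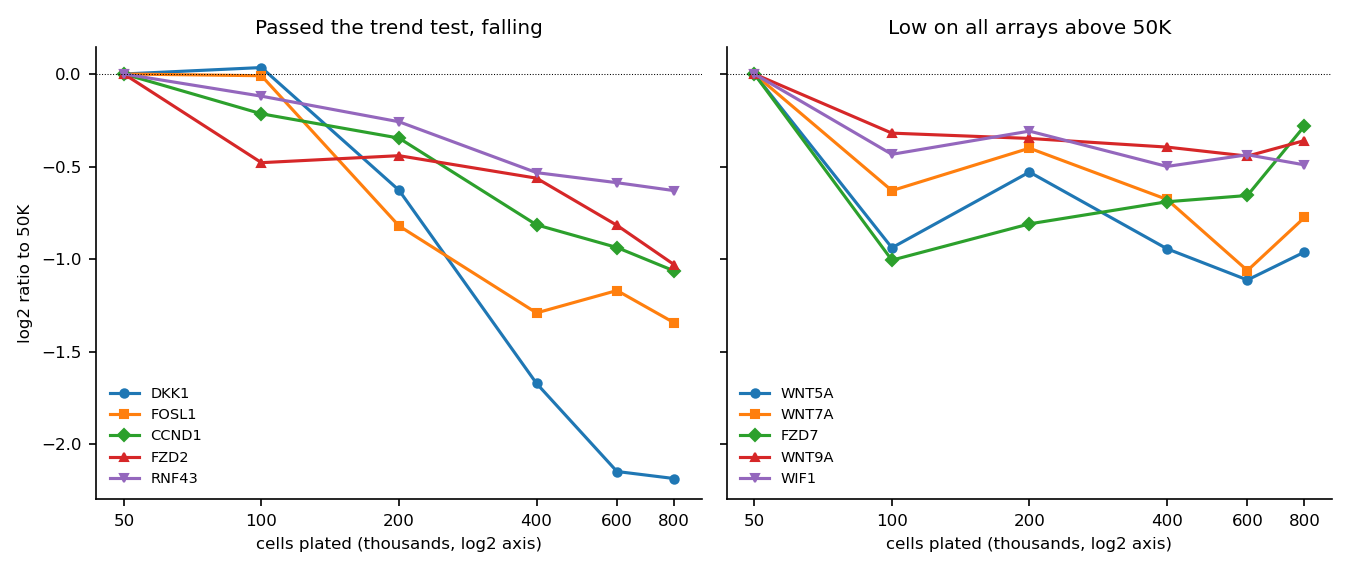
Log2 ratio to 50K (vertical axis) against cells plated (K, log2 axis). The left panel shows DKK1 with 4 list genes that fell. The right panel shows 5 genes, chosen after their values were seen, whose gene means lie below 50K on every other array. FZD7 is at −1.01 at 100K and −0.28 at 800K, a mean of 2 probe sets that differ.

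Profiles like those of the steepest members were sought among the 1256 other genes with a range of at least 1 log2 unit over the 6 arrays, by Pearson's r over the 6 log2 ratios, as a description. Those most like DKK1 were NRG1 (r = 0.998), MGLL (0.995), DONSON (0.994) and LYAR (0.994), all falling, and 216 of the 1256 had r above 0.95. Those most like TCF7L2 were AHR (0.99), APOL6 (0.987), ERRFI1 (0.981) and TNKS1BP1 (0.98), all rising, and 17 of the 1256 had r above 0.95. Any genes with a common density trend score high on this measure. Dividing by 50K shifts a gene by a constant and leaves r unchanged.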

How the data were processed

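Total RNA (200 ng input, phenol and chloroform extraction) of 6 samples was labelled with biotin and read on Affymetrix arrays of the type HG-U133 Plus 2, as the labels' protocols state. The deposited values are linear ratios to the 50K array: all 54675 values of its column equal 1 within 1e-06. The authors used RMA, per the submitters' processing notes; the sources used here give neither its version nor the division step, and no array intensity was used.

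After leaving out 62 controls, 41091 probe sets had 1 gene symbol and 1801 several; 41037 of the former matched RefSeq gene identifiers, with 0 symbols changed. A gene was the mean of the log2 ratios of its single-symbol probe sets. Dividing by 50K shifts a gene by a constant and leaves slopes unchanged. The lines were fits of limma 3.58.1 under R 4.3.3 (eBayes; 4 residual degrees of freedom, 3 for curvature), two-sided. With no replicates, residuals mix dish variation, technical noise and departure from a line. The procedure was tested on simulated data.

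The members and lists were chosen with earlier results of these data known. Genes named were the 10 members, up to 3 further genes past the threshold with the largest slope in each list, and the 4 closest profiles of the steepest rising and falling member. FZD3, TLE1, APCDD1, CAMK2D, DAAM1, VANGL1, GSK3B, FZD7, WNT9A, WIF1 and the marker genes were named after their values were seen. Alternatives were the probe sets used, their median, centring of arrays, the density scale, robust variance estimates, leaving out each array and exact permutation. For single genes the exact permutation was judged on its unadjusted p, and the other alternatives on the adjusted p.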

Additional observations from a re-analysis of the deposited data

How the results depend on the processing

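DKK1 kept its direction and its call in all 13 alternatives (slopes −0.80 to −0.53; exact permutation p = 0.0042), while the 1 rising member, TCF7L2, gave a count of 0 without the probe sets ending in _x_at and _s_at, with the median of probe sets, with arrays centred, on the scale of the cell number and on that of its rank. Without those probe sets 17098 genes were tested, 8 members among them (not SFRP1 and LEF1), and 1157 rose and 1507 fell (15.6% called), against 1765 and 2455 of 19775. With each array left out in turn, 0 to 1 members rose and 1 to 2 fell, 4 to 13 further list genes rose and 6 to 13 fell, and 1026 to 1627 of all genes rose and 1362 to 2282 fell; fewer arrays leave fewer residual degrees of freedom. DKK1 minus DKK3 had a slope of −0.65 on the scale of the cell number, no longer past the threshold (the cause was not tested). With an array left out the slope was −0.81 to −0.61 and the adjusted exact p 0.05 to 0.15. As 5 arrays allow no exact p below 0.0083, a lone pair reaches at best 0.05 after adjustment over 6 pairs. These settings could hardly keep the call. WNT7B minus WNT10A lay between −0.055 and 0.0010 with an array left out, turning sign without 50K. Slopes that turned sign were those of WNT10A (−0.00077 without the _x_at and _s_at probe sets, −0.0015 with arrays centred, −0.0047 to 0.0077 with an array left out), WNT4 (−0.020 to 0.019) and AXIN2 (−0.0029 to 0.010), the lowest each without 50K, none of which passed in any setting. Of 17 further genes named by the rule, 6 kept their call in every alternative. No paired analysis was possible because each density has 1 array. Array number and unknown signal over background limit the precision.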

Other observations

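In the ligand, receptor and antagonist lists a further group of genes was chosen after their values were seen. As gene means these lay below 50K on every other array and did not pass the test of a trend. FZD7, a Frizzled receptor, had ratios of 0.498, 0.57, 0.62, 0.634 and 0.823 from 100K to 800K. This gene mean was lowest at 100K and higher on each denser array (slope −0.03 ± 0.10, adjusted p = 0.892, limma). Neither of its 2 probe sets rose at each step. The probe set that was lowest at 100K read 0.528, 0.760, 0.623, 0.638 and 0.650 in the same order. The other read 0.469, 0.428, 0.616, 0.631 and 1.04, so it was lowest at 200K and above 50K at 800K. The ligand WNT9A lay between 0.735 and 0.801, lower at each step to 600K and higher at 800K (adjusted p = 0.0775), and WIF1, a secreted inhibitor that binds ligands, between 0.707 and 0.807 (adjusted p = 0.0917). Each difference from 50K rests on 1 array at that density.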
